A study of Mus musculus with 4 samples.

Results

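Bbx and the HMG-box transcription regulators related to it form a set of 10 mouse genes: Bbx, Hmgb1, Hmgb2, Hmgb3, Tox, Tox2, Cic, Lef1, Tcf7 and Hbp1. Bbx was taken up because it was among the largest decreases in these data. The others were listed with it as HMG-box genes, with earlier results of these data known. Their clusters are those that the platform's gene table pairs with their symbols. Of the 10 genes, 9 had at least 1 transcript cluster (the array's unit of measurement, a group of probes summarised to 1 value) of their own. These were 13 clusters in all among the 21789 clusters paired with exactly 1 gene symbol. A further 34 clusters named Hmgb1 together with other genes and were kept apart. Tcf7 was not analysed here.

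The RNA came from CH12.F3, a mouse B lymphoma cell line that switches from IgM to IgA in culture. Control cells and Mbd4 KO cells, which lack the DNA glycosylase Mbd4, were measured on 2 whole-transcript arrays each. All 4 cultures had 6% serum and received IL-4 at 5 ng/ml, TGF-beta at 0.2 ng/ml and CD40 ligand at 25% of the volume. They were harvested after 24 hours, so both groups share this stimulation and neither has an unstimulated counterpart. The design speaks of independent samples in each group, and the sources used here do not say whether the knockout arrays came from 1 clone or from several, so the effect of the knockout and any other difference between these cells cannot be told apart. The p-values rest on the spread of these arrays alone, and part of that spread may be technical.

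The HMG box is a short DNA-binding domain that lies in the minor groove and bends the helix. One branch of the family binds DNA with little regard to sequence: Hmgb1, Hmgb2 and Hmgb3 are abundant chromatin proteins of this kind, and the first of them is also released from cells as an alarm signal. The other branch reads a sequence: Lef1 and Tcf7 carry beta-catenin to the targets of Wnt signalling in developing lymphocytes, Cic represses genes that ERK signalling switches on, and Hbp1 represses cell cycle genes. Tox and Tox2 are best known from T cell development, and Bbx is the least studied of the set.

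Mbd4 fell from 8.76 ± 0.021 to 6.48 ± 0.015 (log2, mean ± SD, n = 2 each; limma adjusted p = 0.0002), so the arrays ranked as labelled. The 4 array medians lay between 6.944 and 6.978 (log2). All 7 B cell markers measured were above their array's median on every array, and of 9 T cell markers 7 or 8 were below it. Lef1 and Tox are also known as T cell genes. In RNA from a whole culture, fewer cells with a transcript and less transcript per cell cannot be told apart. The log2 levels of different clusters depend on their probes, so levels were compared between arrays and not between genes.

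Bbx was lower in Mbd4 KO cells by about 4-fold. Its 1 cluster read 7.65 and 7.58 (log2) on the control arrays and 5.66 and 5.63 on the Mbd4 KO arrays. Arrays of the same group lay close together and the groups did not overlap. The difference was -1.97 ± 0.068 (log2, SE), 3.93-fold lower, given as a description and without a test because this difference is why Bbx was taken up. Among genes called lower it was in place 10, after Gnat3 (-2.11) and before Lpp (-1.88). That order counts each gene once, not always by its brightest cluster. Counted by clusters, Bbx was in place 13 from the lowest of all 21789, and it was the lowest of the 13 member clusters. The Mbd4 KO readings lay near the lower quartiles of their arrays, 5.64 on both, which leaves the fold uncertain in size.

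**Figure D1:**
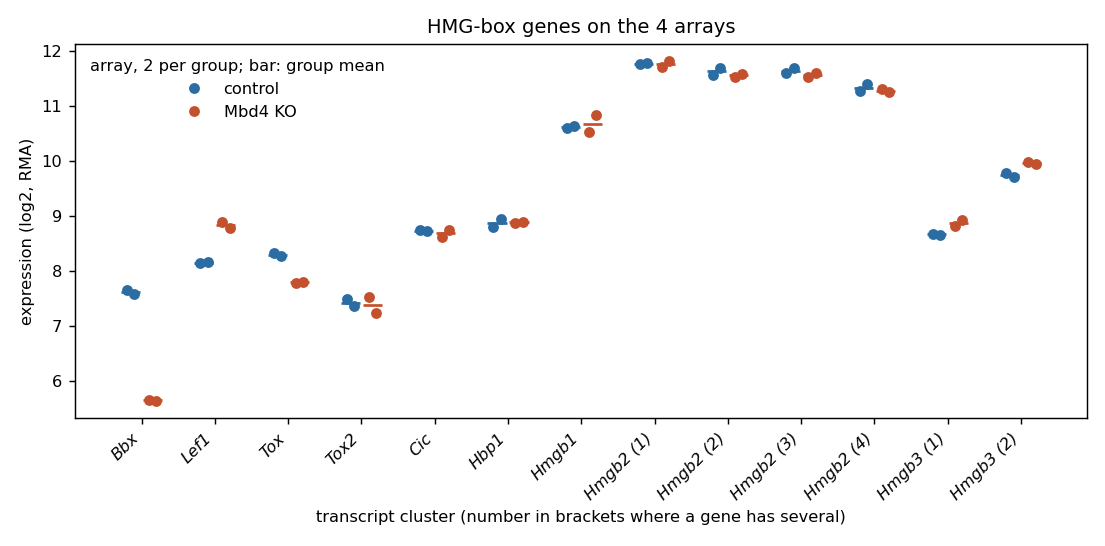
Expression (log2, RMA) of the 13 transcript clusters of 9 HMG-box genes on 2 control (blue) and 2 Mbd4 KO (orange) arrays, with a bar at each group's mean. Bbx reads 7.62 on average in control and 5.64 in Mbd4 KO cells, Lef1 is higher and Tox lower in Mbd4 KO cells, and both Hmgb3 clusters sit slightly higher without overlap.

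Bbx lies on chromosome 16, on which most genes were lower in Mbd4 KO cells. Of 316 other well-measured genes of this chromosome, meaning those whose brightest cluster averaged at least 7.152 over the 4 arrays, 291 (92.1%) had differences below zero, against 42.7% of 9653 genes elsewhere. Their median was -0.28 (log2), with quartiles of -0.36 and -0.18, against 0.021 on the other chromosomes. Limma called 31 of them (9.81%) lower and 0 higher, and well-measured genes as a whole were called lower in 1.34% of cases. The difference of Bbx was 1.70 below the chromosome's median, and of these 316 genes App (-3.23), the amyloid precursor gene, was lower. Bbx itself averaged 6.63 and so missed that mean, through its Mbd4 KO readings, and the filter removed 2 genes that fell still further in the same way. Klhl6 differed by -2.82, from a control mean of 8.32, and Cd200r1 by -2.56, from 8.14. Over all 648 other chromosome 16 genes without that filter, the median was -0.11, and App, Klhl6 and Cd200r1 were the 3 genes below Bbx.

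With the chromosome taken as the yardstick on each array, the decrease of Bbx remained. Bbx minus the median of the well-measured chromosome 16 genes was -2.17 and -2.26 on the control arrays and -3.83 and -3.91 on the Mbd4 KO arrays. The offset itself has no meaning, since probes differ, but its change does not depend on an array's overall level. The control mean was -2.21 ± 0.066 and the Mbd4 KO mean -3.87 ± 0.055 (SD, n = 2 each), so the change was -1.66 where the uncentred one was -1.97.

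**Figure D2:**
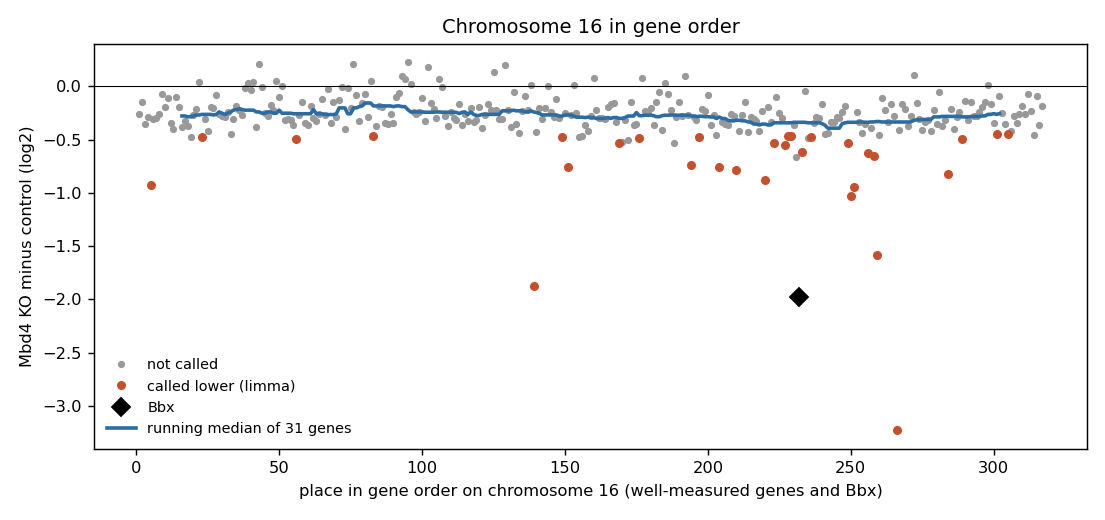
Mbd4 KO minus control (log2) of 316 well-measured chromosome 16 genes and Bbx in gene order, with a running median of 31 genes. The running median stays below zero along the chromosome. Of the genes plotted, App (-3.23), Lpp (-1.88) and Bbx (black diamond, -1.97, place 232 of 317) lie furthest below it, by 2.90, 1.64 and 1.64. Bbx is plotted although it missed the cut for well-measured genes, whereas Klhl6 (-2.82) and Cd200r1 (-2.56), which also missed it, are not.

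The genes before and after Bbx in gene order were both shifted, with medians of -0.27 over 231 genes and -0.31 over 85 genes, and 18 and 13 of them were called lower. The 10 nearest well-measured genes on each side had a median of -0.40, and all 20 were below zero, from -0.66 to -0.040. Bbx was lower than all 20, by 1.57 against their median.

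Of the nearest annotated genes with a cluster, 5 on each side of Bbx, 2 in all were called lower, 1 on each side. Limma called 5.40% of the 648 other chromosome 16 genes lower and 1.37% of all genes in either direction. The groups did not overlap in 88.9% of the well-measured chromosome 16 genes, against 53.1% of those elsewhere, so non-overlap was usual on this chromosome. Ift57, an intraflagellar transport gene, read 7.83 and 7.85 (log2) on the control arrays against 7.34 and 7.43 on the knockout arrays, and fell by 0.46 (SE 0.070; limma adjusted p = 0.0463). Cblb, which encodes a ubiquitin ligase that restrains lymphocyte activation, read 10.97 and 11.05 against 10.32 and 10.48, and fell by 0.62 (SE 0.084; adjusted p = 0.0367). Neither gene overlapped between the groups, and both lost the call with any 1 array left out (adjusted p = 0.167 to 0.236 for Ift57 and 0.105 to 0.195 for Cblb). Both also lost it over all clusters of the table (0.194 for Ift57 and 0.187 for Cblb) and without moderation (0.322 and 0.368), and Ift57 when the replicate number was a block (adjusted p = 0.084).

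The other neighbours did not pass. Cd47, the gene of a surface signal against phagocytosis, differed by -0.36 (adjusted p = 0.0987) and the predicted gene Gm5486 by -0.66 (adjusted p = 0.0526), each without overlap. Both were called with an intensity trend in the variance prior (adjusted p = 0.00143 for Cd47 and 0.00314 for Gm5486) and without the dimmest 30% of clusters (0.0398 and 0.0212). Gm4827 differed by -0.34, Ccdc54 by -0.14, Alcam, a cell adhesion gene, by -0.040, 1700116B05Rik by -0.0034, Dubr by 0.031 and Myh15 by 0.19. Of the genes within 0.1 of zero, Dubr and 1700116B05Rik were dim, with means under 7.152, whereas Alcam was bright. Gm4827 and Ccdc54, directly beside Bbx, were dim too. The control readings of Ccdc54, 5.92 and 5.75, lay near the lower quartiles of those arrays (5.63 and 5.64). Signal over background is unknown, so how large a fall could have shown there is uncertain.

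**Figure D3:**
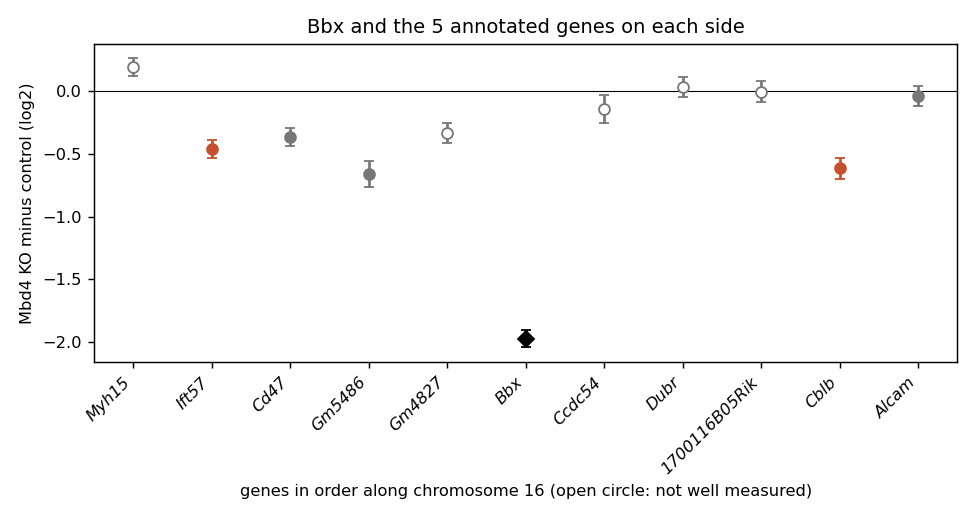
Mbd4 KO minus control (log2, with SE) of Bbx and the 5 annotated genes with a cluster on each side of it in chromosome order. Bbx stands at -1.97, the genes beside it between -0.66 (Gm5486) and 0.19 (Myh15), with Ift57 and Cblb in orange as called lower.

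The clusters whose 4 values were most like those of Bbx, by Euclidean distance over the 4 arrays after the control mean of each was subtracted, came from other chromosomes. The nearest was a cluster of the latrophilin gene Adgrl2 on chromosome 3 (distance 0.124; difference -2.00), followed by the lymphocyte GTPase gene Gimap3 on chromosome 6 (0.239), Gnat3 on chromosome 5 (0.249), Usp44, a deubiquitinase gene, on chromosome 10 (0.271), and a second Adgrl2 cluster (0.305). With 2 groups of 2 arrays this likeness is mostly likeness in the size of the difference.

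Lef1 rose in Mbd4 KO cells. It read 8.14 and 8.16 (log2) on the control arrays against 8.89 and 8.78 on the knockout arrays, so both knockout arrays were above both controls. The difference was 0.69 ± 0.073 (log2, SE), 1.61-fold (limma adjusted p = 0.0154 over all clusters). The call was lost with control array 1, control array 2, Mbd4 KO array 1 or Mbd4 KO array 2 left out (adjusted p = 0.0747 to 0.113), over all clusters of the table (0.142) and without moderation of the variances (0.298), while the difference stayed between 0.63 and 0.74. Lef1 lies on chromosome 3, where the 20 nearest well-measured genes had a median of 0.034 and a highest value of 0.26, so Lef1 was above all of them.

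Tox fell. It read 8.33 and 8.27 (log2) on the control arrays against 7.79 and 7.80 on the knockout arrays, without overlap. The difference was -0.50 ± 0.067 (log2, SE), 1.42-fold lower (limma adjusted p = 0.0344). The call was lost with any 1 of the 4 arrays left out (adjusted p = 0.162 to 0.189), in the fit with a replicate block (0.0733), over all clusters (0.187) and without moderation (0.275). On chromosome 4 the 20 nearest well-measured genes had a median of 0.027 and ranged from -0.27 to 0.22, and Tox was lower than each. Its relative Tox2 read 7.49 and 7.36 on the control arrays against 7.53 and 7.23 on the knockout arrays. The groups overlapped, and the difference was -0.043 (95% interval -0.32 to 0.24; adjusted p = 0.913).

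Thus 3 of 9 genes, by their brightest clusters, were past limma's threshold: Lef1 higher, Bbx and Tox lower. Over all 19938 genes the share was 1.37%, and over all 21789 clusters, of which 3 of 13 here passed, it was 1.39%. Nothing is read from these counts, since Bbx was chosen on this difference and the other members were listed with earlier results known. The groups did not overlap in 4 of the 9 genes, against 45.1% of all genes.

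**Figure D4:**
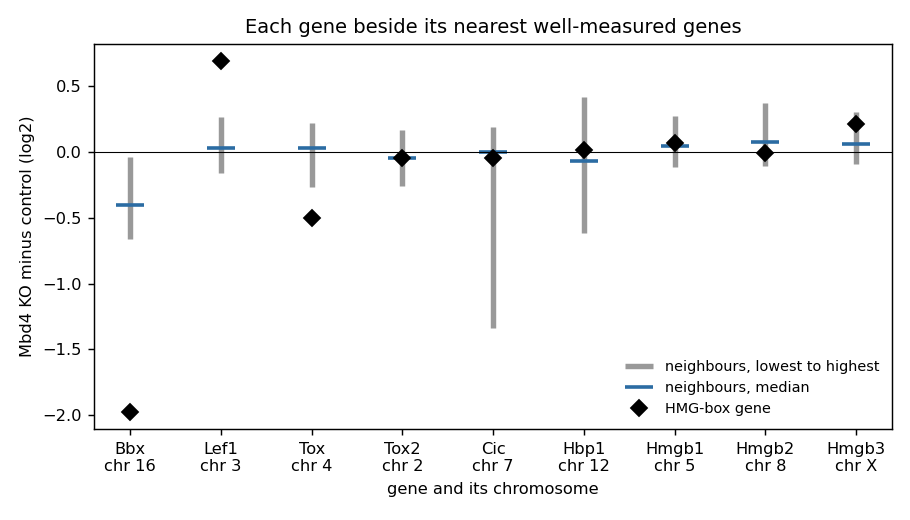
Mbd4 KO minus control (log2) of 9 HMG-box genes (diamonds) beside the median (blue) and the range (grey) of the nearest well-measured genes, 19 or 20 for each. Bbx and Tox lie below the range of their neighbours and Lef1 above it, while the others lie within theirs, and the median is clearly below zero for the neighbours of Bbx (-0.40).

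Among the chromatin proteins, both clusters of Hmgb3, on the X chromosome, were slightly higher in Mbd4 KO cells without passing. The brighter read 9.79 and 9.71 (log2) against 9.98 and 9.95, a difference of 0.21 (SE 0.069; adjusted p = 0.257). The other read 8.67 and 8.67 against 8.82 and 8.93, a difference of 0.21 (SE 0.072; adjusted p = 0.287). Neither overlapped between groups. The neighbours of Hmgb3 had a median of 0.059 and a range of -0.091 to 0.30, which holds the value of Hmgb3.

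Hmgb1 and Hmgb2, the most widely used of these proteins, showed no call. The 1 cluster that names Hmgb1 alone read 10.60 and 10.64 on the control arrays against 10.53 and 10.84 on the knockout arrays, a difference of 0.065 (95% interval -0.21 to 0.34; adjusted p = 0.854). The knockout arrays lay on either side of the controls. The 34 shared clusters, which also name Hmgb1-like genes, had differences from -0.13 to 0.043 with a median of -0.030, and 31 of them were below zero. The groups did not overlap in 22 of the 34, against 45.1% of all genes. All 34 name Hmgb1, so they are not taken as separate measurements. None was called by limma when all clusters of the table were tested (lowest adjusted p = 0.613).

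Hmgb2 had 4 clusters, with differences of -0.0095, -0.077, -0.078 and -0.061 (adjusted p = 0.702 to 0.975), all overlapping between groups. The brightest read 11.76 and 11.79 in control cells against 11.71 and 11.82 in Mbd4 KO cells. Its difference of -0.0095 had a 95% interval of -0.19 to 0.17. No source here gives the probe positions, so clusters of Hmgb2 and Hmgb3 may read related copies.

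The 2 sequence-reading repressors also showed no call. Cic read 8.74 and 8.72 in control cells against 8.62 and 8.75 in Mbd4 KO cells, a difference of -0.046 (95% interval -0.23 to 0.14; adjusted p = 0.842). Hbp1 read 8.80 and 8.94 against 8.88 and 8.89, a difference of 0.019 (95% interval -0.17 to 0.21; adjusted p = 0.949). In both the groups overlapped.

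Of 33 other HMG-box genes measured (of 35 listed: the SOX family, further TOX, TCF and HMGB relatives, and chromatin subunits such as Smarce1 and Pbrm1), limma called 0 higher and 0 lower, with 2 at an unadjusted p under 0.05. Of all 19938 genes 2786 reached that unadjusted level, 7.59% higher and 6.38% lower, which is the background for each such count here. The median of the 33 was 0.032 and 21 were above zero, against a median of 0.023 and 57.9% above zero for all genes. The largest differences were those of Sox5 (-0.40; adjusted p = 0.0991) and Sox12 (-0.22; adjusted p = 0.288). Sox5 read 7.15 and 7.05 against 6.77 and 6.64, and it was called with an intensity trend in the variance prior (adjusted p = 0.0452) or without the dimmest 30% of clusters (0.041). Sox4, which acts in early B cells, differed by 0.053, and Tcf7l1 and Tcf7l2, close relatives of Lef1, by 0.0084 and 0.0066.

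The high mobility group proteins without an HMG box, which bind nucleosomes or AT-rich DNA, were at or below zero in all 5 measured members, with a median of -0.21 and 0 calls by limma (3 at an unadjusted p under 0.05). Hmgn5 read 9.45 and 9.19 against 8.61 and 8.86, a difference of -0.58 (SE 0.12; adjusted p = 0.107), and was called with an intensity trend (adjusted p = 0.00547) or without the dimmest 30% of clusters (0.0483). Hmgn3 differed by -0.22 (adjusted p = 0.328). Hmgn1, on chromosome 16 like Bbx, differed by -0.18 (adjusted p = 0.314), which is above that chromosome's median of -0.28.

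Partners of Lef1 in beta-catenin signalling showed no call in 16 measured genes (1 at an unadjusted p under 0.05), with a median of 0.023, close to that of all genes. Beta-catenin itself, Ctnnb1, differed by -0.035. The largest difference was in Gsk3b, a kinase that marks beta-catenin for degradation and a chromosome 16 gene, which read 10.45 and 10.53 against 9.93 and 10.14, a difference of -0.45 (SE 0.091; adjusted p = 0.0989). It was called with an intensity trend (adjusted p = 0.00292) or without the dimmest 30% of clusters (0.041). Its paralogue Gsk3a, elsewhere in the genome, differed by 0.018, and the co-repressor gene Tle1 by 0.17 (adjusted p = 0.449).

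Among 10 target genes of TCF and LEF factors, limma called 1 higher and 0 lower, against 90 higher and 184 lower of all 19938 genes. It gave 3 of the 10 an unadjusted p under 0.05, all higher, against 7.59% of all genes higher at that level. Axin2, a feedback inhibitor of Wnt signalling and a widely used readout of it, read 8.61 and 8.60 on the control arrays against 9.02 and 9.06 on the knockout arrays. It rose by 0.44 (SE 0.066; limma adjusted p = 0.045), without overlap between the groups. The call was lost with quantile normalization (adjusted p = 0.0508), without chromosome 16 in the fit (0.0507), in the fit with a replicate block (0.0891), over all clusters (0.189), without moderation (0.259) and with any 1 array left out (0.2 to 0.233). Ccnd1, cyclin D1, differed by 0.31 (adjusted p = 0.135) and Myc by 0.24 (adjusted p = 0.219), both without overlap and both called with an intensity trend (0.00594 and 0.00395). With the trend 3 of the 10 were called, all higher, against 383 higher and 639 lower of all 19938 genes. The median of the list was 0.066, with 6 of 10 above zero, and Lgr5, Rnf43 and Sp5 lay within 0.01 of zero.

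**Figure D5:**
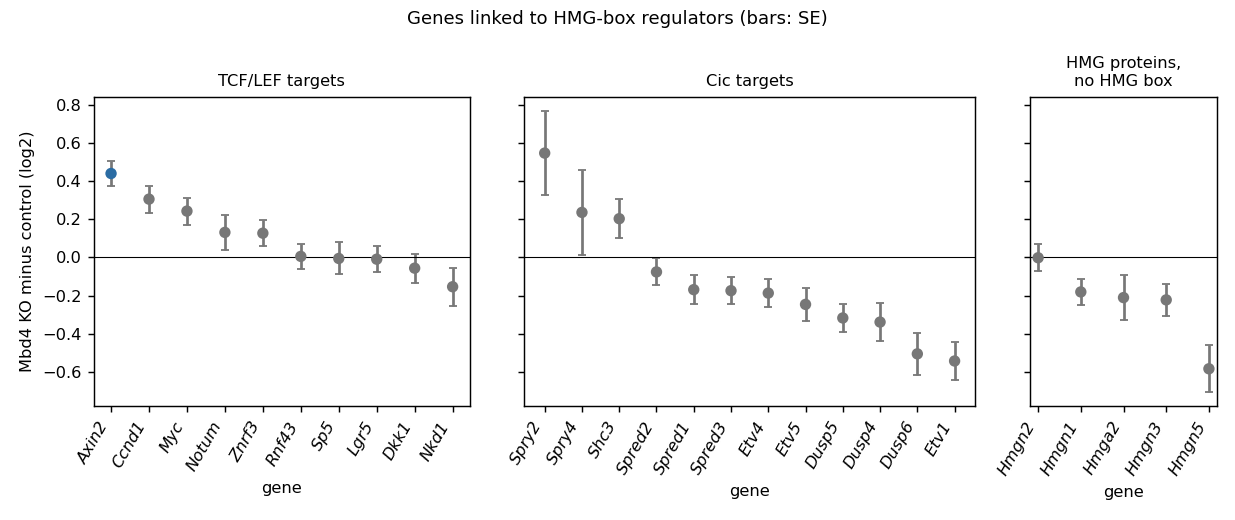
Mbd4 KO minus control (log2, with SE) of TCF/LEF target genes, Cic target genes and high mobility group proteins without an HMG box. Axin2 (blue, 0.44) is called higher, and 9 of 12 Cic targets lie below zero, none of them called.

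Sequences upstream of Lef1 and Axin2 are shown because these were the TCF/LEF factor and the target of such factors that rose. They are the 250 bases before annotated transcript starts in RefSeq, build GRCm38.p6, plus strand, 5′ to 3′, with the letters CTTTGA and ACAAAG, cores of TCF/LEF and related SOX sites, in capitals on either strand (as TCAAAG and CTTTGT on the other). Of the 10 members 8 had an entry in that RefSeq table.
Lef1, outermost start (chr3:131110047-131110296): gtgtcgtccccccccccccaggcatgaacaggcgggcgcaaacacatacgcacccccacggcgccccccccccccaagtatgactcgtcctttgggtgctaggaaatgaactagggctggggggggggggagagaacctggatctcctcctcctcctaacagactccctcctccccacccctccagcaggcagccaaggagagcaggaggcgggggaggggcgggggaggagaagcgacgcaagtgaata
Lef1, innermost start (chr3:131156044-131156293): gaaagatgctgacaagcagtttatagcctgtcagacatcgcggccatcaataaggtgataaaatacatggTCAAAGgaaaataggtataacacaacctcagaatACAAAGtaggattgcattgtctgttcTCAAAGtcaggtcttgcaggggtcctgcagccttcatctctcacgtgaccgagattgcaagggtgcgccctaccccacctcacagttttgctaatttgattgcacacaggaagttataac
Axin2, outermost start (chr11:108920099-108920348): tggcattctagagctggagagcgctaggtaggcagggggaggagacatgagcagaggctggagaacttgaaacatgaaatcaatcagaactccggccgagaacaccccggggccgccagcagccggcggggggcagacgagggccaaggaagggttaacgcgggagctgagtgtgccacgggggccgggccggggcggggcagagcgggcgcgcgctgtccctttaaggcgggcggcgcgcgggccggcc
The outermost windows of Lef1 and Axin2 held neither core. RefSeq lists 4 Lef1 starts, and the 2 between those shown held neither core. The innermost window is the 1 of 4 with a match, shown for that reason. It held CTTTGA in 2 places, read on the minus strand and beginning 180 and 120 bases before the start, and ACAAAG in 1 place, 146 bases before it. Of 32851 windows of this length, 13.8% held CTTTGA and 16.5% held ACAAAG on either strand, so such matches are common and are a description of the letters only. The 2 motifs can overlap only in part and did not overlap here. CpG sites, the letters that Mbd4 binds when methylated, numbered 11, 5 and 24 in the 3 windows shown, against a median of 6 over all windows. DNA methylation was not measured in these samples.

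Targets of the repressor Cic were mostly below zero, none past the threshold. Of 12 measured, 9 were below zero, with a median of -0.18, and the groups did not overlap in 11, against 45.1% of all genes. Among these 9, Etv5 (-0.25) lies on chromosome 16, where the median over the 648 genes other than Bbx was -0.11. Limma called 0 of them, with 8 at an unadjusted p under 0.05, 7 lower and 1 higher, against 6.38% lower and 7.59% higher among all genes. With an intensity trend 3 were called lower, Etv1 (adjusted p = 0.0191), Dusp6 (0.0195) and Dusp5 (0.0375), against 5.13% of all genes called in either direction in that fit, and without the dimmest 30% of clusters 0 of 9 were called. Etv1, an ETS factor gene, read 6.14 and 6.34 against 5.77 and 5.61, a difference of -0.54 (SE 0.099; adjusted p = 0.0783). Its other cluster differed by -0.27 (adjusted p = 0.486). Dusp6, a phosphatase gene that damps ERK, differed by -0.51 (SE 0.11; adjusted p = 0.118). Spry2, a receptor signalling inhibitor, read 4.80 and 4.69 against 5.65 and 4.92, a difference of 0.55 with a wide error (SE 0.22; adjusted p = 0.359), at a dim level. The genes of the ataxin partners of Cic, Atxn1 (-0.065) and Atxn1l (0.19), did not pass.

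The remaining lists held few differences. Of 6 receptors for extracellular Hmgb1, limma called 0 (1 at an unadjusted p under 0.05), the largest differences being those of Tlr4 (-0.27; adjusted p = 0.314) and Havcr2 (0.21; adjusted p = 0.508). Of 5 targets of Hbp1, it called 0 (1 at an unadjusted p under 0.05, Ccnd1, which was called with the trend), and Mycn differed by -0.33 (adjusted p = 0.519). Rag1 and Rag2, the recombinase genes whose product Hmgb1 and Hmgb2 assist, were dim and differed by -0.12 and 0.16, with 0 called and 0 at an unadjusted p under 0.05.

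Markers of other cell types were measured beside Lef1 and Tox. The summed level of 9 T cell markers (log2 of the sum) was 11.55 and 11.48 on the control arrays and 11.70 and 11.66 on the Mbd4 KO arrays, with 0 called by limma and 4 at an unadjusted p under 0.05, all higher, the largest being Cd3g (0.42; adjusted p = 0.254) and Thy1 (0.30; adjusted p = 0.207). Of the 9, 5 were above zero and 4 below, Cd4 (-0.19), Cd3d (-0.15), Lat (-0.12) and Cd3e (-0.0012), with a median of 0.011. The sum is mostly Cd28, a costimulatory receptor gene, which made up 75.6% to 78.3% of it and differed by 0.20 (adjusted p = 0.3, and 0.0376 with an intensity trend). Without Cd28 the other 8 summed to 9.42 and 9.44 against 9.49 and 9.47. The summed level of 5 NK and cytotoxic cell markers was 9.17 and 9.19 against 8.81 and 8.83, carried by Nkg7 and Prf1, while Ncr1 (-0.093), Gzmb (-0.0023) and Klrd1 (0.057) did not pass and overlapped between groups. Nkg7, a cytotoxic granule gene, fell by 0.61 (limma adjusted p = 0.0333), a call lost with any 1 array left out (0.0838 to 0.184), in the fit with a replicate block (0.0643), over all clusters (0.187) and without moderation (0.357), and Prf1, perforin, differed by -0.37 (adjusted p = 0.0698, but 0.0162 with an intensity trend and 0.0257 without the dimmest 30%). The part of such cells or programmes in the rise of Lef1 and the fall of Tox was not tested. B cell markers summed to 14.82 and 14.85 against 14.79 and 14.85, with 0 of 7 called (2 at an unadjusted p under 0.05) and Cd22 (0.44; adjusted p = 0.0843) and Blnk (-0.28; adjusted p = 0.15) differing most. Cd22 was called with an intensity trend (adjusted p = 0.00159) and without the dimmest 30% (0.0343), and Blnk with the trend (0.00325). Myeloid (0 of 5 called, 1 at an unadjusted p under 0.05; Lyz2 0.24, Itgam 0.10) and fibroblast markers (0 of 4, and 0 at an unadjusted p under 0.05; Pdgfra 0.21, Dcn 0.14) did not pass.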

How the data were processed

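Total RNA was extracted with Trizol, column-purified and biotin-labelled by the Affymetrix whole-transcript protocol, per the labels' protocols. The deposited values are log2 expression, 1 per transcript cluster and array, made by the authors with RMA (background correction, quantile normalization and summary over probes), per the submitters' processing notes. The sources used here give neither its version nor the array's genome build, and no raw intensity was used, so signal over background is unknown.

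The gene table of the platform is old and paired 21789 of 35556 clusters with 1 symbol, 1621 with several and 12146 with none. Symbols, chromosomes and gene order came from RefSeq (GRCm38.p6) by gene ID for 21698 clusters. The 2 groups were fitted in R 4.3.3 by limma 3.58.1, using lmFit and eBayes without trend or robust prior and without a filter. Tests were two-sided, and p-values were adjusted by Benjamini and Hochberg's method over 21789 clusters, with a threshold of 0.05. SEs are moderated, with 2 residual and 4 prior degrees of freedom. An exact permutation test of 2 against 2 arrays can give no p below 0.333, and the number of arrays limits the precision. Gene lists use each gene's brightest cluster and are described by counts and medians. Tested on simulated data of the same 21789 clusters, the fit had these results: log2 changes of 0.5 were recovered in 13% and of 1 in 96% of cases, with 5 unchanged clusters called. The simulated noise was independent between clusters and had no intensity trend, and no chromosome shifted as a whole. These rates therefore hold for such simulated data and may differ on these arrays.

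The members and lists were chosen with earlier results of these data known. Named were all member clusters, Mbd4, each list's passing genes and 2 largest differences, 5 annotated genes on each side of Bbx and the 5 clusters most like it. Genes named beyond this rule (App, Klhl6, Cd200r1, Gnat3, Lpp, Sox4, Tcf7l1, Tcf7l2, Hmgn1, Ctnnb1, Gsk3a, Myc, Lgr5, Rnf43, Sp5, Dusp5, Dusp6, Etv5, Cd28, Cd4, Cd3d, Lat, Cd3e, Ncr1, Gzmb, Klrd1) were chosen after their values were seen. Alternatives were a replicate block, leaving out each array, an intensity trend, a robust prior, removal of the dimmest 30% of clusters, quantile or cyclic loess normalization, all clusters, no moderation, no chromosome 16, and other neighbour windows. Figures used matplotlib 3.10.9.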

Additional observations from a re-analysis of the deposited data

How the results depend on the processing

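The decrease of Bbx lay between -2.01 and -1.94 under every alternative that fitted it. Against the chromosome 16 median it was -1.70, with -1.74 to -1.65 when 1 array was left out and -1.86 without the filter on dim genes. Against its neighbours it was -1.57, with -1.67 to -1.50 when 1 array was left out, -1.66 without that filter, -1.50 with 5 and -1.64 with 20 genes on each side. The count of called clusters, 302, was 159 with the replicate block, 65 to 75 with 1 array left out, 1121 with an intensity trend, 640 without the dimmest 30%, 22 over all clusters of the table and 202 without chromosome 16. Without moderation limma's ordinary variances called 0 (2469 at an unadjusted p under 0.05). Of the 13 member clusters 3 were called, those of Bbx, Lef1 and Tox. Over all clusters the only member call was that of Bbx, from which nothing is read because Bbx was chosen on this difference. Lef1 (limma adjusted p = 0.142) and Tox (0.187) did not pass there. Without moderation 0 of the 13 were called (4 at an unadjusted p under 0.05). With 1 array left out, Lef1 differed by 0.63 to 0.74 and Tox by -0.53 to -0.48. Without chromosome 16 Bbx was not tested. The replicate numbers are shared labels only: deviations of same-numbered arrays correlated at 0.0831 over clusters. Lef1 kept its call with the replicate block (7 of 13 alternatives in all) and Tox did not (6 of 13).

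Sign changes were limited to small differences. With 1 array left out the ranges were -0.055 to 0.092 for Hbp1, -0.20 to 0.11 for Tox2, -0.11 to 0.019 for Cic, -0.094 to 0.22 for Hmgb1, -0.068 to 0.049 and -0.13 to 0.0086 for 2 clusters of Hmgb2, -0.15 to 0.015 for Atxn1, -0.28 to 0.048 for Rag1, -0.0082 to 0.33 for Rag2, -0.044 to 0.11 for Dubr, -0.077 to 0.071 for 1700116B05Rik and -0.12 to 0.037 for Alcam. With quantile normalization the brightest Hmgb2 cluster differed by 0.00021. The cause of these changes was not tested.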
